A study of Anas platyrhynchos with 3 samples.

Results

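The genes described are the cadherins, protocadherins, catenins and nectins transcribed in bill skin of Pekin ducks, Anas platyrhynchos. They were chosen by gene symbol: CDH followed by a number, without CDH5 and CDH19, all PCDH genes, the FAT, DCHS and CELSR giant cadherins, the alpha-catenins (CTNNA), the delta-catenins (CTNND), and the nectins NECTIN1 and NECTIN3. The rule selected 40 of 14938 genes. The study concerned the lamellar cells of touch corpuscles, and messenger RNA was sequenced from whole skin of embryos at embryonic day 24 to 26. The embryos were dissected after internal pipping, at 24 to 48 hours from hatching. For all 3 libraries the egg temperature is given as 37 °C. A single group was sampled, with 3 biological replicates of 32247700, 30630039 and 25268141 counted reads, numbered 1 to 3 in this order. No treatment or second group is given, so genes were compared with one another inside each library, in FPKM (fragments per kilobase of gene model, scaled to library depth).

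Cadherins are calcium-dependent adhesion proteins that bind their like on the neighbouring cell. The tail of a type I or type II cadherin holds beta-catenin, which holds alpha-catenin and through it the actin cytoskeleton, while p120-catenin binds closer to the membrane and slows removal of the cadherin from the cell surface. Nectins form a parallel adhesion system at the same junctions. Protocadherins and the giant FAT, DCHS and CELSR cadherins do not bind beta-catenin this way and are known for cell recognition, tissue growth and the alignment of cells within a sheet. In skin, E-cadherin joins keratinocytes, and mesenchymal cadherins are typical of the dermis.

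The 4 highest of the 40 genes held most of their summed level. Alpha-catenin CTNNA1, E-cadherin CDH1, p120-catenin CTNND1 and the mesenchymal cadherin CDH11 together made up 68.4 ± 0.339% of the summed FPKM of all 40 genes (SD, n = 3). Most other genes were low: the median of the 40 was 2.43 FPKM, against 7.68 FPKM over the 14343 genes with a read. A level of at least 1 FPKM in all 3 libraries was reached by 24 of the 40, and the other 16 stood below it in 1 library or more. Skin is a mixture of cells, so more cells of a type and more RNA per cell cannot be told apart. Of the measured markers, 19 of 19 keratinocyte, 16 of 16 fibroblast, 14 of 14 endothelial, 10 of 10 Schwann and lamellar cell, 5 of 5 smooth muscle and pericyte and 7 of 9 cartilage and bone genes reached 1 FPKM in every library, as did 71.0% of all genes. The keratinocyte and fibroblast lists had the highest summed levels, and 3 of 10 skeletal muscle genes reached the minimum. So did 6 of 8 Merkel cell, 6 of 10 sensory neuron, 3 of 9 melanocyte and 4 of 9 leukocyte genes.

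**Figure D1:**
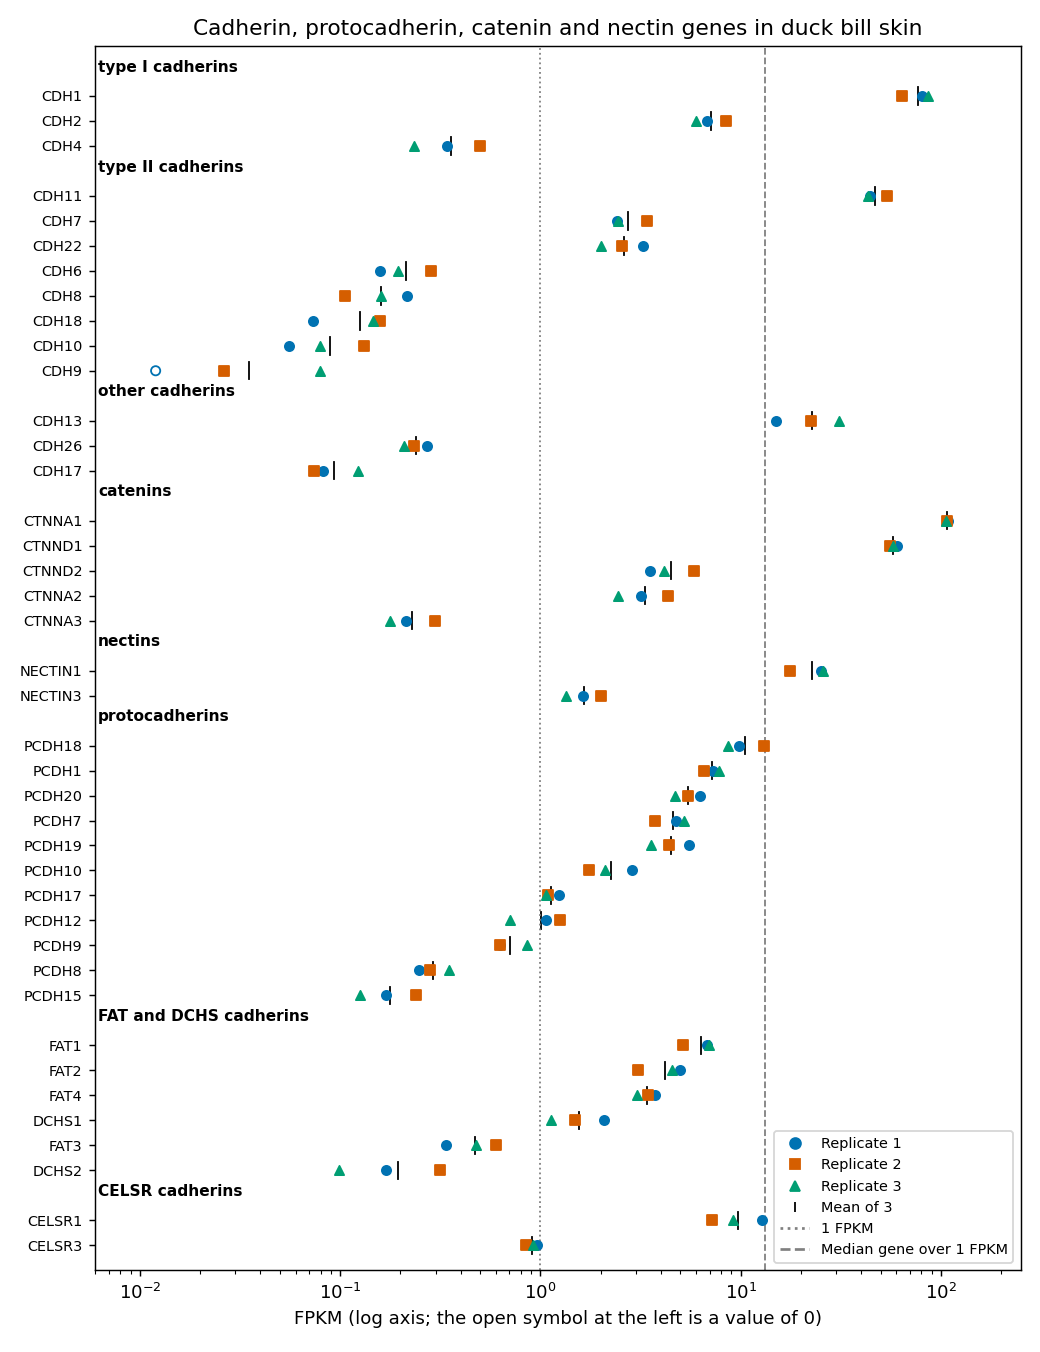
Level of each of the 40 genes in FPKM on a log axis, by family, with 1 symbol per replicate and a black tick at the mean of the 3. CTNNA1, CDH1, CTNND1 and CDH11 lie right of 40 FPKM in every library, and the 16 genes with a library left of the dotted line at 1 FPKM include most of the type II cadherins.

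The type I cadherin CDH1, which joins epithelial cells, stood at 80.4, 64.2 and 86.0 FPKM in replicates 1, 2 and 3. Its reads fell on a gene model of 1666 bases, the shortest of the 40, and a level per length rests on that model. Whether the model is complete was not tested. CDH1 ranked 998th of all genes by mean FPKM. CDH2 (N-cadherin), typical of neural and mesenchymal cells, was lower at 6.82, 8.44 and 5.97 FPKM. CDH1 thus exceeded CDH2 in 3 of 3 libraries, by 11.8-, 7.60- and 14.4-fold, and the ranges were far apart. The third type I gene, CDH4 (R-cadherin), had 0.340, 0.500 and 0.235 FPKM from 25, 36 and 14 reads. Counting error alone gives it 95% Poisson intervals of 0.220 to 0.502, 0.350 to 0.693 and 0.128 to 0.394 FPKM, which overlap. Reads are not independent molecules where PCR copied them, so such intervals cover counting error only.

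Among the 8 type II cadherins of the 40 genes, CDH11, a gene of mesenchyme and bone-forming cells, was the highest. It had 44.4, 53.6 and 43.5 FPKM, highest in replicate 2, the library in which CDH1 was lowest. CDH1 still exceeded CDH11 in FPKM in each library, by 1.81-, 1.20- and 1.98-fold. Raw reads ran the other way, with 7521, 8885 and 5981 for CDH11 and 4222, 3304 and 3670 for CDH1. The gene model of CDH11 had 5369 bases, so this order and the shares below depend on the model lengths. Of the summed FPKM of the type I and II cadherins among the 40 genes, 55.8 ± 6.79% came from CDH1 (SD, n = 3). CDH11 gave 34.4 ± 5.03% and CDH2 gave 5.17 ± 1.06%. CDH5, CDH19 and rows without a symbol are not in these sums. CDH7, which migrating neural crest cells carry in the chick embryo, was at 2.42, 3.40 and 2.45 FPKM. CDH22, a type II cadherin first described in pituitary and brain, had 3.27, 2.57 and 2.01 FPKM. The ranges of CDH7 and CDH22 overlapped, so their order is not resolved. The other 5 type II genes averaged between 0.0351 and 0.213 FPKM, led by CDH6 at 0.213 ± 0.0643 and CDH8 at 0.160 ± 0.0542. At the bottom, CDH9 had 0, 2 and 5 reads. A count of 0 in replicate 1 allows up to 0.0385 FPKM (3 reads), so a difference between libraries was not detectable at this depth.

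CDH13 (T-cadherin) is tethered by a lipid anchor and lacks the tail that binds catenins. It differed more between libraries than any other of the 24 genes over 1 FPKM. Its levels were 15.0, 22.5 and 31.0 FPKM, and 4579, 6731 and 7689 reads lay behind them. The coefficient of variation (CV) was 35.1%, against 1.26% for counting error alone. Endothelial cells are a known source of CDH13. The 14 endothelial markers had a median log2 deviation from the mean of the 3 libraries of 0.17, 0.00 and -0.14, a summed FPKM of 195, 179 and 157, and none at 0. Their part in the values of CDH13 was not tested. CDH26, an atypical epithelial cadherin, and CDH17, an intestinal cadherin in mammals, were at 0.239 ± 0.0326 and 0.0933 ± 0.0263 FPKM.

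Inside the cell, the 2 abundant catenins varied less between libraries than CDH1, whose CV was 14.7%, or CDH11, at 11.8%. CTNNA1 had 109, 107 and 106 FPKM, and its CV of 1.30%, against 0.901% for counting error, was lower than that of all but 0.971% of genes over 1 FPKM. CTNND1 followed at 60.5, 55.6 and 57.5 FPKM with a CV of 4.25%. The neural paralog CTNNA2 was lower, at 3.18, 4.34 and 2.46 FPKM, and 96.8 ± 0.875% of alpha-catenin FPKM came from CTNNA1. CTNND2, a neural relative of p120-catenin, was at 3.53, 5.85 and 4.16 FPKM, and CTNND1 made up 92.7 ± 2.05% of the pair. CTNNA3, the alpha-catenin of heart and testis, averaged 0.230 ± 0.0620 FPKM. Both neural paralogs were highest in replicate 2, whereas CTNND1 was lowest there and CTNNA1 lay between its other values.

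The 2 nectins differed widely in level. NECTIN1 was at 25.3, 17.6 and 25.7 FPKM, lowest in replicate 2 as was CDH1. NECTIN3, its partner across the junction in many tissues, had 1.64, 2.00 and 1.34 FPKM and was highest in replicate 2. NECTIN1 exceeded NECTIN3 by 15.4-, 8.79- and 19.2-fold.

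**Figure D2:**
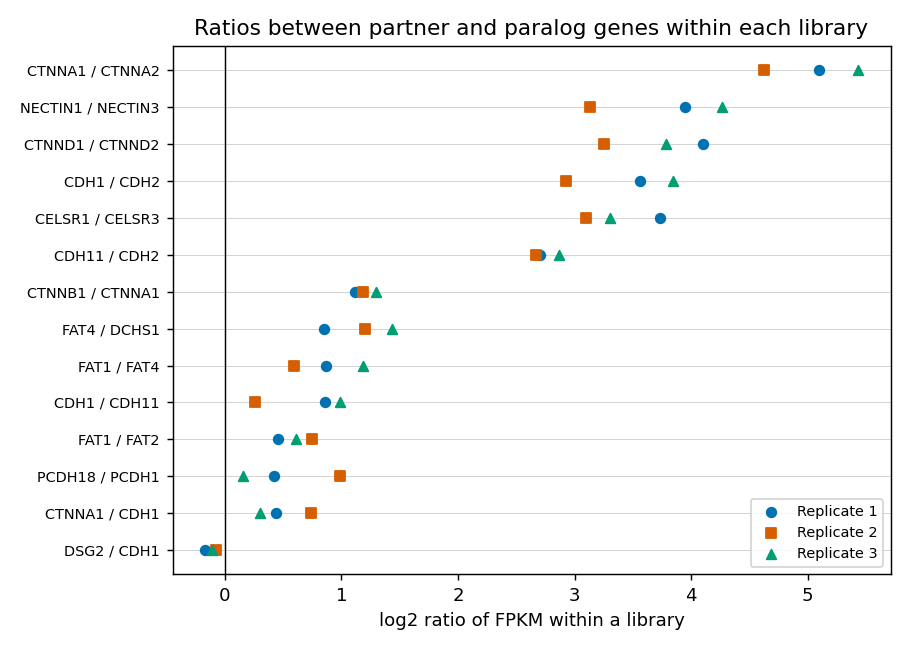
Log2 ratio of FPKM between 2 genes within each library, 1 symbol per replicate, with the named numerator before the slash. In 13 of the 14 pairs the numerator was higher in all 3 libraries, and DSG2 lay just under CDH1 in each. The pairs were chosen with earlier results of these data known.

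Of 14 such ratios computed, 13 had the numerator higher in 3 of 3 libraries with ranges that did not overlap. Their exact sign-flip permutation p was 0.25 two-sided in each case, the smallest that 3 libraries allow, and stays 0.25 after Benjamini-Hochberg adjustment, so these ratios are values without a call. The 14 ratios were chosen with earlier results of these data known, so the count of 13 is not a result in itself. Beta-catenin CTNNB1, which the symbol rule does not include, exceeded CTNNA1 by 2.17-, 2.27- and 2.46-fold. CTNNA1 exceeded CDH1 by 1.35-, 1.67- and 1.23-fold. The desmosomal cadherin DSG2, of the neighbouring junction type, was at 0.889, 0.949 and 0.927 times the FPKM of CDH1, with overlapping ranges. Every ratio to CDH1 rests on its short gene model.

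The 11 protocadherins together reached 39.8, 38.5 and 35.2 FPKM, less than CDH1 alone in each library. Most belong to the delta group, single genes expressed widely in nervous tissue and embryonic mesenchyme. PCDH18 was the highest at 9.78, 13.1 and 8.68 FPKM, most in replicate 2. PCDH1, a protocadherin of airway epithelium in mammals, came next at 7.28, 6.60 and 7.79 FPKM, least in replicate 2. PCDH18 exceeded PCDH1 by 1.34-, 1.98- and 1.11-fold, and the ranges of these genes did not overlap.

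Then came a group of protocadherins known mainly from the nervous system. PCDH20 had 6.26, 5.46 and 4.69 FPKM. PCDH7 had 4.77, 3.73 and 5.22 FPKM. PCDH19 had 5.52, 4.42 and 3.58 FPKM. Their ranges overlapped, so their order is not resolved. Lower still, PCDH10 had 2.86, 1.76 and 2.11 FPKM, and PCDH17 had 1.24, 1.09 and 1.07 FPKM. The CV of PCDH17 was 8.07%, against 5.998% for counting error. PCDH12, a protocadherin of endothelial cells, was at 1.07, 1.25 and 0.706 FPKM and so missed the minimum in replicate 3 alone. Under it were also PCDH9 at 0.706 ± 0.135, PCDH8 at 0.292 ± 0.0514 and PCDH15, part of the tip link of inner ear hair cells, at 0.177 ± 0.0572 FPKM.

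The giant cadherins had gene models of up to 16680 bases, so that many reads gave modest levels. FAT1, which binds regulators of actin, had 3597, 2666 and 2964 reads but 6.84, 5.17 and 6.94 FPKM. FAT2, an epithelial member in mammals, was at 4.99, 3.08 and 4.53 FPKM. Both were lowest in replicate 2, and FAT1 exceeded FAT2 by 1.37-, 1.68- and 1.53-fold. FAT4 and DCHS1 are a receptor and its ligand in planar polarity and growth control. FAT4 was at 3.75, 3.43 and 3.05 FPKM. DCHS1 was lower at 2.08, 1.49 and 1.13 FPKM, 1.84-fold apart between its highest and lowest library. FAT3, known from neurons, averaged 0.472 ± 0.131 FPKM and DCHS2 averaged 0.194 ± 0.110 FPKM.

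CELSR1, which aligns hair follicles in mouse skin, was the highest of the giant cadherins. It had 12.9, 7.24 and 9.12 FPKM, 1.78-fold higher in replicate 1 than in replicate 2. CELSR3, known from axon guidance, was at 0.967, 0.847 and 0.923 FPKM, just under the minimum.

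In order of mean FPKM, the 24 genes over 1 FPKM formed 23 neighbouring pairs, of which 18 overlapped in range. The gaps without overlap were all near the top: below CTNNA1, CDH1, CTNND1 and CDH11, and between CDH13 and PCDH18. From PCDH18 down to PCDH17 no neighbours could be told apart by their ranges.

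Each library's median gene over the minimum served as a common yardstick for a test. A limma moderated test over the 10605 genes that reached 1 FPKM in every library put 6 of the 24 genes above it, where 43.7% of all genes tested were called above, and 17 below it, where 43.6% were called below. The median difference of the 24 from the median gene was -1.40 on the log2(FPKM + 0.1) scale, where 0 is the median gene itself. Those above were CTNNA1 at 3.01 ± 0.09 (log2 difference ± SE, limma adjusted p = 1.2e-06), CDH1 at 2.52 ± 0.11 (adjusted p = 3.92e-06), CTNND1 at 2.12 ± 0.09, CDH11 at 1.82 ± 0.11, NECTIN1 at 0.76 ± 0.13 (adjusted p = 0.00174) and CDH13 at 0.72 ± 0.20 (adjusted p = 0.0133). These are differences between genes, and 1.00 on this scale is close to a doubling.

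The lowest of those below were PCDH17 at -3.44 ± 0.09, DCHS1 at -3.04 ± 0.16 and NECTIN3 at -2.94 ± 0.13. CDH2 was at -0.91 ± 0.12 (limma adjusted p = 0.000577) and FAT1 at -1.07 ± 0.11 (adjusted p = 0.000176). PCDH18 did not pass, at -0.35 ± 0.14 (limma adjusted p = 0.0509). It passed without replicate 2 (-0.53, adjusted p = 0.00398), but not without replicate 1 (-0.31, adjusted p = 0.182) or without replicate 3 (-0.22, adjusted p = 0.241). CELSR1 passed at -0.48 ± 0.16 (limma adjusted p = 0.0305). It passed without replicate 1 (-0.69, adjusted p = 0.00694), but not without replicate 2 (-0.29, adjusted p = 0.0966) or without replicate 3 (-0.45, adjusted p = 0.0901).

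**Figure D3:**
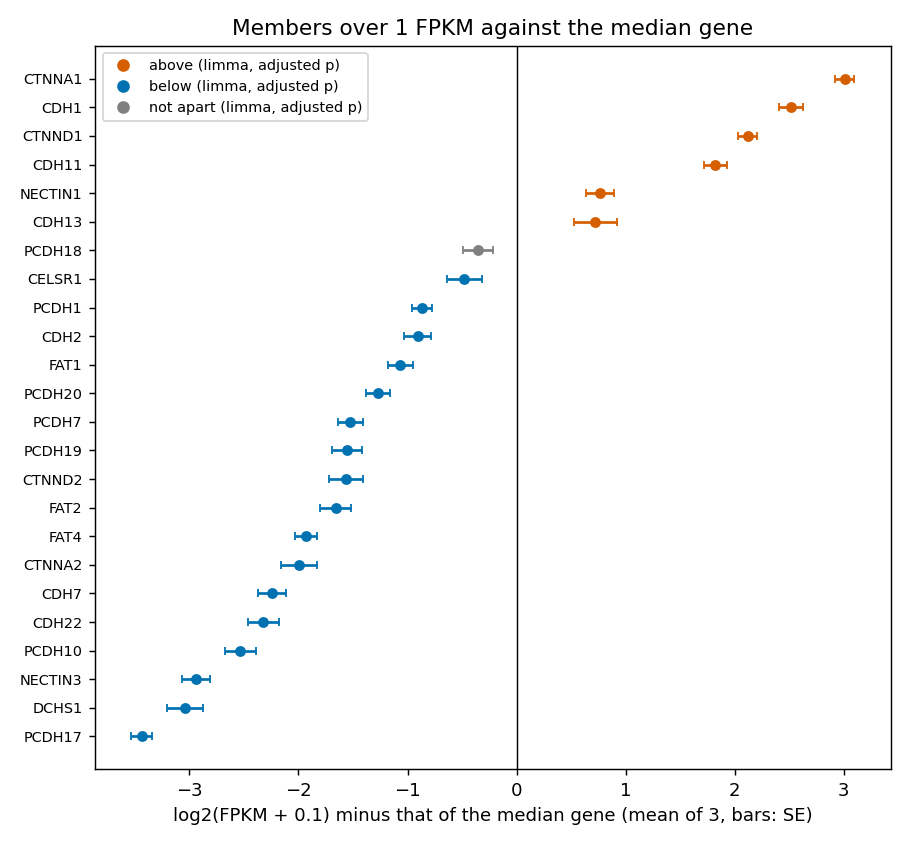
Difference of each of the 24 genes over 1 FPKM from the library median gene on the log2(FPKM + 0.1) scale, as the mean of 3 libraries with SE bars. Orange marks the 6 genes called above, blue the 17 called below and grey PCDH18, which was not called.

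Some of these genes were lowest in replicate 2 and others highest there, at shares near those of all genes. CDH1, NECTIN1, FAT1, FAT2, PCDH1, PCDH7, PCDH10, CELSR1 and, by a small margin, CTNND1 were lowest in replicate 2. CDH2, CDH7, CDH11, NECTIN3, PCDH18, CTNNA2 and CTNND2 were highest there. On the log2 scale, replicate 2 deviated from the mean of the 3 libraries by -0.25 for CDH1, -0.35 for NECTIN1 and -0.41 for FAT2, and by 0.19 for CDH11, 0.27 for CDH2 and 0.41 for CTNNA2. The 9 lowest and 7 highest of 24 stand against 36.6% and 34.0% of all genes over the minimum, so these counts are near the background.

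The cell type markers moved in replicate 2 as well. Of 19 keratinocyte genes, 15 were lowest in replicate 2, with a summed level of 6181, 5267 and 5980 FPKM in replicates 1, 2 and 3 and a median deviation of -0.16 in replicate 2. Of 16 fibroblast genes, 15 were highest there, with sums of 4386, 7678 and 4517 FPKM and a median deviation of 0.47. Schwann and lamellar cell genes summed to 516, 910 and 540 FPKM, with a median deviation of 0.19 in replicate 2, where 8 of 10 were highest. PMP22 at 212, 441 and 256 FPKM and MBP at 182, 333 and 171 FPKM made up most of these sums. SOX10 was nearly level at 12.5, 13.8 and 13.8 FPKM, and NGFR and ERBB3 were lowest in replicate 2. Smooth muscle and pericyte genes summed to 143, 211 and 170 FPKM, and 5 of 5 were highest there. Cartilage and bone genes summed to 114, 224 and 87.8 FPKM, with a median deviation of 0.41 in replicate 2, and 6 of 7 over the minimum were highest there. None of the measured genes in these 5 lists was at 0 in all 3 libraries, but MATN1 of the cartilage list had 0 reads in replicate 3. Their part in the values of the junction genes was not tested.

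**Figure D4:**
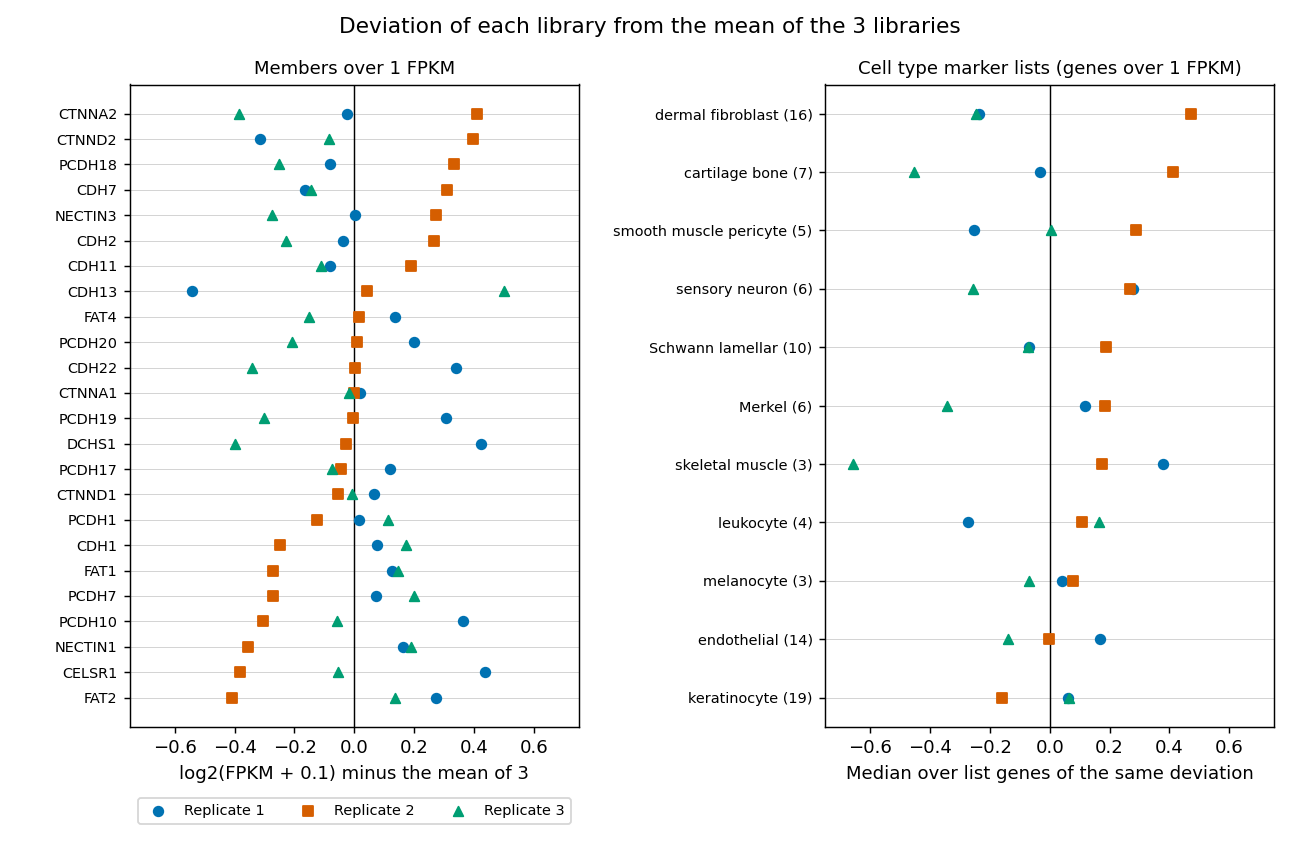
Left, log2(FPKM + 0.1) of each library minus the mean of the 3 for the 24 genes over 1 FPKM, ordered by replicate 2. Right, the median of the same deviation over the genes of each cell type marker list, with the number of genes in brackets. CDH1 and the keratinocyte list sit left of 0 in replicate 2, and CDH11 and the fibroblast list sit right of it.

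Other genes were neither lowest nor highest in replicate 2. CDH22, DCHS1, FAT4, PCDH17, PCDH19, PCDH20 and, by a small margin, CTNNA1 were highest in replicate 1 and lowest in replicate 3. Among the 24 genes, 45.8% were highest in replicate 1 and 50% lowest in replicate 3. Over all genes above the minimum these shares were 33.1% and 31.0%. The difference was not tested, and the share with both was not computed. For DCHS1 the deviations were 0.42, -0.03 and -0.40, and for CDH22 they were 0.34, 0.00 and -0.34. The lists highest in replicate 1 and lowest in replicate 3 were skeletal muscle, at 0.38, 0.18 and -0.66 over 3 genes, endothelial cells and, narrowly, sensory neurons at 0.28, 0.27 and -0.26 over 6 genes. The sums were 76.3, 46.5 and 21.8 FPKM for skeletal muscle, with 4 of 10 measured genes at 0 in all libraries, and 138, 128 and 80.3 FPKM for sensory neurons, with none of 10 at 0. Their part in these values was not tested. Over all 24 genes the median CV was 20.0%, against 11.7% over genes over the minimum. The 24 also had a lower median level, 5.02 against 13.3 FPKM, and genes of like level were not compared. Of the 24, 22 had a CV over 2 times that of counting error, the exceptions being CTNNA1 and PCDH17. The share of all genes over this factor was not computed, so the 22 have no background beside them.

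Of 15 measured beta-catenin and actin linker genes, 11 were above the library median gene and 3 below it (limma, adjusted over all genes), where 43.7% of all genes tested were above and 43.6% below. The highest was JUP, or plakoglobin, which serves both desmosomes and adherens junctions, at 567 ± 59.6 FPKM. CTNNB1 had 246 ± 12.6, the scaffold IQGAP1 107 ± 7.21 and the actin crosslinker ACTN1 106 ± 7.82 FPKM (SD, n = 3). The list median was 1.10 above the median gene on the log2 scale.

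Of 19 measured genes of cadherin shedding, turnover and phosphorylation, 11 were above the median gene and 7 below. The shares over all genes were 43.7% and 43.6%, and the difference was not tested. The list median was 0.45 on the log2 scale. CTNNBIP1, an inhibitor of beta-catenin's binding to TCF factors, was highest at 104 ± 5.99 FPKM, followed by the kinase YES1 at 36.8 ± 2.88. The protease ADAM10, which cuts E-cadherin and N-cadherin at the cell surface, was at 30.7 ± 2.28 and the phosphatase PTPRF at 25.6 ± 4.20 FPKM.

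Repressors of CDH1, mesenchymal factors and epithelial factors were all transcribed in the same skin. Of 13 measured genes of this list, 9 were above the median gene and 3 below, against 43.7% and 43.6% of all genes, with a list median of 1.04 on the log2 scale. PRRX1, a mesenchymal factor, was highest at 112, 318 and 187 FPKM. The epithelial splicing factor ESRP2 was at 103, 66.8 and 101 FPKM, lowest where PRRX1 was highest. TCF4 was at 64.1 ± 6.17 and SNAI2, a repressor of CDH1, at 62.7 ± 3.45 FPKM. The list mixes factors of epidermis and dermis, and whole skin does not show which cells held them.

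Of 13 measured planar polarity partners of the giant cadherins, 12 were tested, with 4 above the median gene and 7 below. The shares over all genes were 43.7% and 43.6%, and the difference was not tested. The list median was -0.99 on the log2 scale. The receptor FZD6 led at 44.4 ± 8.68 FPKM, followed by PTK7 at 28.5 ± 2.42, SCRIB at 22.6 ± 1.75 and PRICKLE1 at 18.7 ± 2.77. VANGL1, a core polarity gene named here after its values were seen, was the lowest tested at 2.37 ± 0.385 FPKM.

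Among 11 measured nectin-like and other immunoglobulin adhesion genes, 9 were tested, with 5 above the median gene and 3 below. Over all genes the shares were 43.7% and 43.6%, and the difference was not tested. The list median was 0.61 on the log2 scale. CHL1, a neural adhesion gene, was highest at 70.2, 44.5 and 76.3 FPKM, lowest in replicate 2 like NECTIN1. MCAM was at 60.2 ± 5.31, the nectin-like gene CADM1 at 31.3 ± 1.57 and CD47 at 20.5 ± 2.40 FPKM.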

How the data were processed

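RNA was isolated with TRIzol, and strand-specific libraries were made from poly(A) RNA, per the labels' protocols. Raw counts per gene and FPKM were deposited by the authors for each library, per the file headers. Tools listed in the submitters' processing notes, with no role stated, are edgeR 3.22.3, featureCounts (Subread 1.6.2), STAR 2.5.4b, Trimmomatic 0.36 and CASAVA 1.8.2. Genome build: not given in the sources used here. With edgeR's TMM factors (0.978, 1.01 and 1.01), count and FPKM gave a whole gene length, within 0.01 bases, for 100% of 14343 genes with a read, so the deposited FPKM carry TMM scaling.

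Of 3347 identifiers without a symbol, 730 took one from the gene table of the IASCAAS_PekinDuck_T2T assembly, used for names and neighbours, and only for the gene lists and the closing section; 12906 identifiers matched it in all. No sequence is printed. Tests used log2(FPKM + 0.1) minus that of the library median gene, for genes reaching 1 FPKM in every library, in limma 3.58.1 (R 4.3.3), two-sided, with Benjamini-Hochberg adjustment over all genes and a threshold of 0.05. A fold on this scale understates low genes. P-values rest on 3 samples. Alternatives changed the pseudocount, the minimum, the variance prior, the scaling (DESeq2 1.42.0 size factors) and the test, and left out each replicate. The other test was a quasi-likelihood F test on counts. It was written out from the fit of edgeR 4.0.16, not run with edgeR's own test function. The limma and edgeR tests were also run on simulated data, and no rate of true or false calls is given here. Genes over the minimum are named with all 3 values, others by family with at least the highest 2, and of each list the 4 highest. Genes, lists and the 14 ratios were chosen with earlier results of these data known. Reads shared by near-identical genes may have been split or dropped. Figures used Python 3.11.15 and matplotlib 3.10.9.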

Additional observations from a re-analysis of the deposited data

How the results depend on the processing

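No paired analysis was possible because there is 1 group. Of 146 counts recomputed under alternatives, 134 were within 1.5 times of the value reported. The minimum moved the other 12, because it sets which genes are tested and which gene is the median. Among those of the 40 genes that each minimum admitted, 29 were below the median gene with no minimum, 27 at 0.1 FPKM and 5 at 5 FPKM. Over all genes tested, 6456 of 14343 were below with no minimum, 5436 of 12451 at 0.1 FPKM and 3360 of 7888 at 5 FPKM. Called above at these settings were 6386, 5480 and 3365. The list counts that follow also cover only the genes that each minimum admitted. Of the beta-catenin and actin linker genes, limma called 0 below with no minimum (0 also at an unadjusted p under 0.05, and edgeR, run at 1 FPKM only, called 3) and 1 at 0.1 FPKM. Of the shedding and turnover genes, 3 were below with no minimum and 4 at 0.1 FPKM, and 5 were above at 5 FPKM. At 5 FPKM, 1 of the transcription and splicing factors was below. At the same minimum 2 of the planar polarity genes were above and 2 below, and 3 of the immunoglobulin genes were above. Of 251 values of single genes, 236 kept direction and call, 8 lost the call, 4 gained it and 3 reversed. CELSR1 stood at 0.32 with no minimum (adjusted p = 0.138), and PCDH18 at 0.45 with no minimum (adjusted p = 0.0354) and 0.045 at 0.1 FPKM (adjusted p = 0.782). PCDH18 was called at -0.32 with a pseudocount of 1 FPKM (adjusted p = 0.0434), at -0.95 at 5 FPKM and, at the same value as reported, with the trended robust prior (adjusted p = 0.0413). With the F test from the edgeR fit and with DESeq2 size factors none of the 24 genes over 1 FPKM changed its call. That F test called 2 immunoglobulin genes below the median gene, against 3 with limma. Without a minimum CDH2 (-0.10), FAT1 (-0.26) and PCDH1 (-0.06) lost the call, as did CDH13 (0.12) and NECTIN1 (0.16) at 5 FPKM. Depth limits genes with few reads, such as CDH9 and CDH10.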

Other observations

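The deposited table also holds rows without a symbol whose gene number the RefSeq table of the IASCAAS_PekinDuck_T2T assembly names, and 5 of these would fit the symbol rule. CELSR2, a planar polarity cadherin, was the highest of them at 9.14, 6.78 and 9.48 FPKM and lay below the library median gene (log2 -0.65 ± 0.12 SE, limma adjusted p = 0.0024). Its range overlapped that of CELSR1, and it was lowest in replicate 2 like CELSR1. PCDH11X, a delta protocadherin, was at 1.81, 1.93 and 1.33 FPKM and also lay below (log2 -2.91 ± 0.13 SE, limma adjusted p = 3.89e-06). CDH23, which joins PCDH15 in the hair cell tip link, was at 0.668, 0.767 and 0.994 FPKM, above PCDH15 in 3 of 3 libraries. The type II genes CDH20 and CDH12 were at 0.300 ± 0.205 and 0.133 ± 0.0695 FPKM. Of the 5 rows, only CELSR2 and PCDH11X reached the minimum and were tested. With these 5 rows added, a choice made after seeing the data, 6 genes lay above the median gene and 19 lay below it. Over all genes tested, 43.7% were called above and 43.6% below.

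Some genes of this family lie next to each other on that assembly, with no protein-coding gene between, and such neighbours had unlike levels in some places and like levels in others. CDH8 and CDH11 on chromosome 12 were at 0.160 ± 0.0542 and 47.2 ± 5.58 FPKM. PCDH18 and PCDH10 on chromosome 4 were at 10.5 ± 2.30 and 2.24 ± 0.564 FPKM, and PCDH20 and PCDH9 on chromosome 1 at 5.47 ± 0.787 and 0.706 ± 0.135 FPKM. The type II genes CDH10, CDH12 and CDH18, which follow each other on chromosome 2, had at most 0.210 FPKM in any library, and CDH26 and CDH4 on chromosome 21 averaged 0.239 and 0.358 FPKM.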
